A study of Mus musculus with 16 samples.

Results

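Cardiolipin synthesis and remodeling genes were examined by RNA sequencing in p53-/-; Myc hepatoblasts that received sorafenib or its vehicle. The genes were given as a list of 10 entries, matched as written to the rows of the count table, and 9 of the 10 had a row: Cds1, Cds2, Tamm41, Prelid1, Pgs1, Ptpmt1, Crls1, Lclat1 and Pnpla8. The entry "Hadha-none" had no row, and Hadha itself was read with the other genes of the pathway. The 9 genes are a small part of the 40840 genes in the table, and each of them passed the filter on low counts that left 20444 genes.

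The p53-/-; Myc hepatoblasts are mouse liver progenitor cells in which p53 is knocked out and Myc is overexpressed. They stand in for liver cancer cells in culture, and all 16 libraries came from this 1 line. Cells received sorafenib, a multikinase inhibitor, or DMSO for 48 hours or 7 days, in 4 groups of 4 replicates: DMSO for 48 hours, sorafenib for 48 hours, DMSO for 7 days and sorafenib for 7 days. Nothing in the labels says that replicates were separate cultures, so a p-value measures only the spread between these samples, which may be technical. Values below are normalized read counts, meaning the reads on a gene scaled for the depth and composition of each library.

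Total counts ranged from 16586254 to 30828427 per library. In 1 library, replicate 2 of sorafenib for 48 hours, counts were lower toward the end of the genome order: its median log2 deviation from its group was -0.48 over 2212 genes on chromosomes 15 to 19 and X, against 0.07 over 7814 genes on chromosomes 1 to 13. Lclat1 is the only member in that region, and its values are given with and without this library. Leaving this library out also moved the log2 fold changes of other members at 48 hours slightly. They went from 0.36 to 0.32 for Ptpmt1, 0.10 to 0.07 for Crls1 and 0.04 to 0.005 for Tamm41. The changes were -0.54 to -0.57 for Cds2, -0.56 to -0.59 for Prelid1 and -0.74 to -0.65 for Cds1. Pgs1 went from 0.53 to 0.56 and Pnpla8 from 0.13 to 0.14, and no member call changed at 48 hours. Trp53 was counted at 1766 to 4147 and Myc at 6390 to 15250 in the 16 libraries. Myc lies on chromosome 15, and its lowest value is that of replicate 2 of sorafenib for 48 hours. The rest of that group ran from 9564 to 10190. A count over the whole gene does not show which exons of Trp53 were read, so it is no check of the knockout. Of 12 liver progenitor markers, Hnf4a had no count in any library, Alb and Afp averaged at most 9.45 in any group, and the summed level of the list ran from 35000 to 36370 with DMSO and 12890 to 14810 with sorafenib at 48 hours, and from 18790 to 20600 and 6900 to 7164 at 7 days. Most of that sum was Dlk1, which fell to 0.324 at 48 hours and 0.240 at 7 days. Krt8 fell to 0.622 and 0.466, Krt18 to 0.758 and 0.53, Krt19 to 0.586 and 0.698 and Epcam to 0.229 and 0.158. Krt8 and Krt18 lie on chromosome 15 and Epcam on chromosome 17. Without the library with lowered counts, their log2 fold changes at 48 hours were -0.51, -0.28 and -1.87 in place of -0.69, -0.40 and -2.13. The Krt18 groups overlapped at 48 hours. Epcam had only 1 to 10 reads per library with sorafenib at 48 hours and 1 to 5 at 7 days. Sox9 rose 3.11-fold and 2.59-fold and Foxa2 3.41-fold and 1.79-fold. A list of 9 markers of other cells, led by Col1a1 and Acta2, summed to 46720 to 49820 with DMSO and 133300 to 154600 with sorafenib at 48 hours, and to 66150 to 67990 and 114400 to 119500 at 7 days. In that list Acta2 and Col1a1 rose at both times, Pdgfrb fell to 0.589 and 0.655 and Des to 0.455 at 7 days. Acta2 lies on chromosome 19 and Pdgfrb on chromosome 18. Replicate 2 of sorafenib for 48 hours had an Acta2 count of 47770, where the rest of its group had 69340 to 73380. Without it, the log2 fold changes at 48 hours were 3.93 for Acta2 and -0.64 for Pdgfrb, in place of 3.81 and -0.76. The leukocyte marker Ptprc and the macrophage marker Adgre1 were at or near 0, while Cd68, also a macrophage marker, averaged 66.0 to 69.1 in the 4 groups. The part of these shifts in the results below was not tested. In RNA of whole cultures, less RNA per cell and fewer cells that express a gene cannot be told apart.

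Cardiolipin is the signature phospholipid of the inner mitochondrial membrane, where it holds respiratory complexes together in supercomplexes. Its synthesis starts from phosphatidic acid, which is carried to the inner membrane, activated to CDP-diacylglycerol, joined with glycerol 3-phosphate, dephosphorylated to phosphatidylglycerol and condensed with another CDP-diacylglycerol to give cardiolipin. New cardiolipin then loses and regains acyl chains until it carries the set typical of the tissue. The members were read in that order: supply of CDP-diacylglycerol (Cds1, Cds2, Tamm41), transfer of phosphatidic acid (Prelid1), synthesis (Pgs1, Ptpmt1, Crls1) and remodeling (Lclat1, Pnpla8).

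In the genome build GRCm39, the members lie on 7 chromosomes. Ptpmt1 (chr2:90739060-90748787, minus strand), Cds2 (chr2:132105057-132153970) and Crls1 (chr2:132688552-132709039) share chromosome 2, and the others are Cds1 (chr5:101912718-101971729), Tamm41 (chr6:114981158-115014854, minus strand), Pgs1 (chr11:117877118-117941752), Pnpla8 (chr12:44267948-44374085), Prelid1 (chr13:55468313-55474506) and Lclat1 (chr17:73414926-73550368). Several of them overlap a gene on the opposite strand in the GENCODE annotation. Lrrn4 covers 52.2% of the exons of Crls1, Kbtbd4 covers 47.8% of those of Ptpmt1, and Rab24 and Mxd3 cover 29.9% and 20% of those of Prelid1. The library kit keeps strand, but the strand setting of the counting is not given in the sources used here, so the counts of these partners are given beside those members. Of the 50-base stretches of Prelid1 transcripts, 5.61% also occur in transcripts of other genes, most often in the processed pseudogene Gm11605, against at most 1.39% for any other member.

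Measured per kilobase of exon, Prelid1 was the most abundant member and Cds1 the least abundant in all 4 groups. With DMSO for 48 hours, Prelid1 stood at 1557 ± 15 normalized reads per kilobase (mean ± SD, n = 4 here and for all group values below), Crls1 at 491 ± 12.2, Cds2 at 271 ± 4.15, Lclat1 at 203 ± 7.46, Ptpmt1 at 130 ± 4.32, Tamm41 at 88.0 ± 4.92, Pgs1 at 63.2 ± 2.77, Pnpla8 at 52.9 ± 2.76 and Cds1 at 2.88 ± 0.358. No neighbors in this order overlapped in their 4 libraries. With sorafenib for 48 hours, Lclat1 and Cds2, Cds2 and Ptpmt1, and Pgs1 and Tamm41 overlapped as neighbors, and with DMSO for 7 days so did Ptpmt1 and Cds2. Over the 4 groups, 28 of 32 neighboring pairs did not overlap. The middle of the order depended on the length used. Per kilobase of the longest transcript, Tamm41 stood at 288 ± 16.1 with DMSO for 48 hours and overlapped Lclat1, at 254 ± 9.32. On that scale 25 of 32 pairs did not overlap, and Prelid1 stayed highest and Cds1 lowest in all 4 groups. Of the paralogs Cds1 and Cds2, Cds2 was far the more abundant: it was 44.3 to 348 times Cds1 per kilobase in the 16 libraries, and Cds1 had only 2 to 21 reads in any of them.

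**Figure D1:**
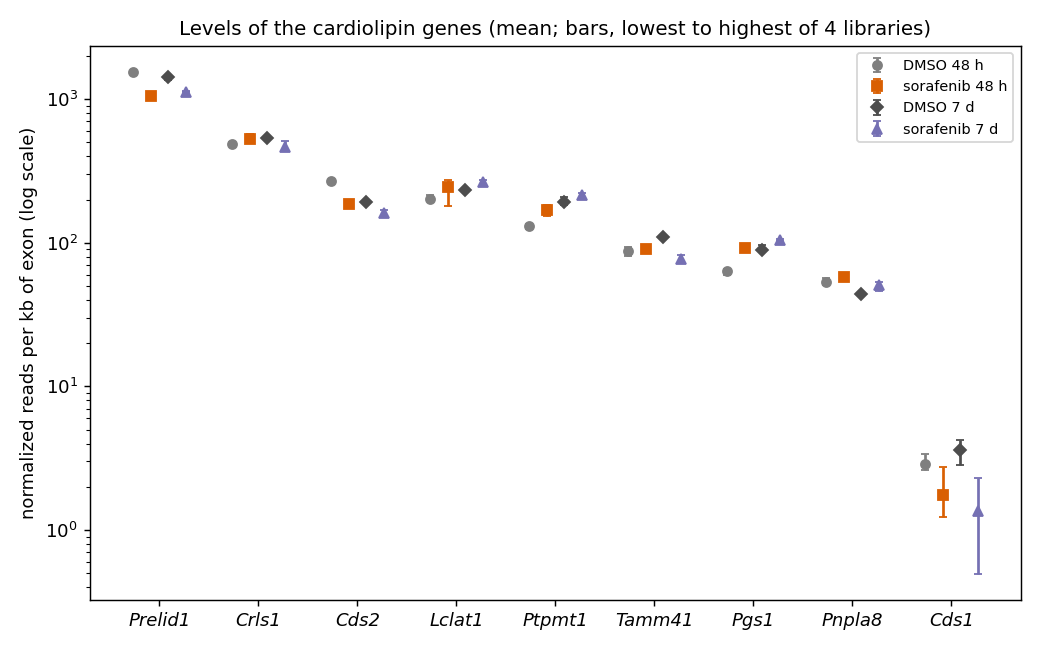
Level of each of the 9 members in normalized reads per kilobase of exon (vertical axis, log scale), with a symbol for the mean of each of the 4 groups and bars from the lowest to the highest of 4 libraries. Prelid1 lies above 1000 in every group and Cds1 below 5, and the other 7 genes lie between them.

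With sorafenib, some members rose and others fell. At 48 hours, Pgs1, Ptpmt1, Lclat1 and Pnpla8 rose and Cds2 and Prelid1 fell (edgeR quasi-likelihood test, FDR under 0.05 over all 20444 genes), so 4 of 9 were called higher and 2 lower, where 26.9% of all genes tested were higher and 27.7% lower. At 7 days, Pgs1, Ptpmt1 and Pnpla8 rose and Cds1, Cds2, Tamm41, Prelid1 and Crls1 fell, 3 higher and 5 lower, against 28.9% and 27.9% of all genes. Groups did not overlap for 4 of the 9 members at 48 hours and 8 of 9 at 7 days, against 48% and 56.8% of all genes. The median log2 fold change of the members was 0.10 at 48 hours and -0.20 at 7 days, beside -0.05 and 0.02 over all genes tested. The median size of the change, ignoring its sign, was 0.36 and 0.24 for the members and 0.50 at both times for all genes. Of the 9 members, only Cds1 at 7 days also passed an absolute log2 fold change of 1, as did 3690 of all 20444 genes at 48 hours and 4202 at 7 days. Without replicate 2 of sorafenib for 48 hours, 6 members passed at 48 hours and all 9 at 7 days. Of all 20353 genes tested in that setting, 11608 and 12590 passed. Both treatment comparisons have their own DMSO group. A design of 4 against 4 libraries allows an exact permutation p no lower than 0.0286, which is the value reached by each member whose groups did not overlap.

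**Figure D2:**
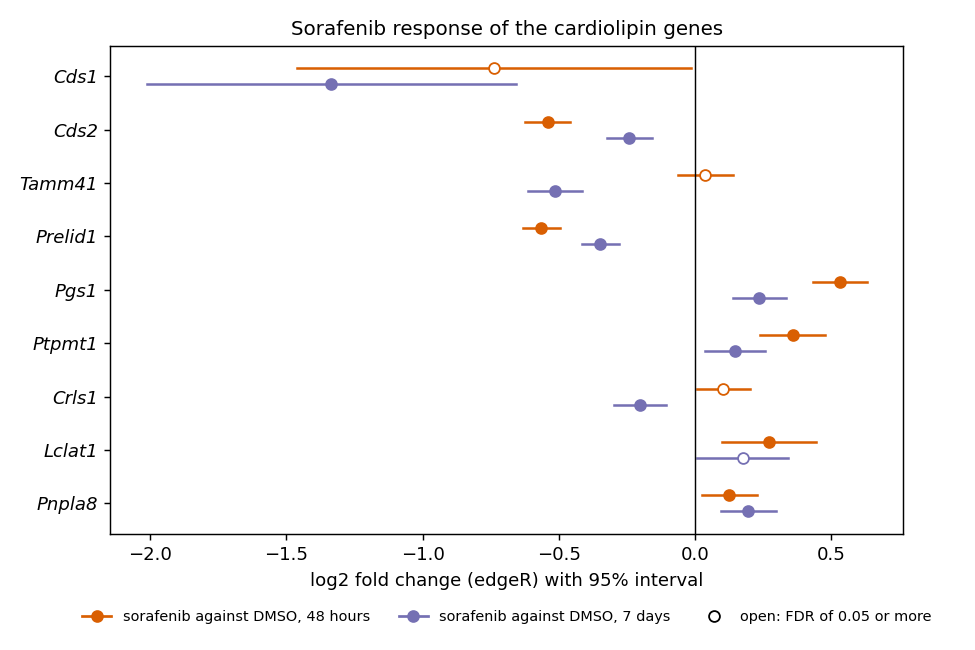
Log2 fold change of each member with sorafenib against DMSO (horizontal axis) at 48 hours (orange) and 7 days (purple), with the 95% interval of the edgeR fit. Open symbols mark an FDR of 0.05 or more. Cds1, Cds2 and Prelid1 lie left of 0 at both times, Pgs1, Ptpmt1, Lclat1 and Pnpla8 lie right of 0 at both, and Tamm41 and Crls1 lie right of 0 at 48 hours and left of it at 7 days.

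Of the genes that supply CDP-diacylglycerol, Cds2 fell at both times. Cds2 encodes the main CDP-diacylglycerol synthase of the endoplasmic reticulum. With DMSO for 48 hours, the normalized Cds2 counts in replicates 1 to 4 were 2521, 2475, 2569 and 2513, and with sorafenib they were 1695, 1839, 1733 and 1666. The groups were far apart, and sorafenib brought Cds2 to 0.688 of the DMSO level (log2 fold change -0.54 ± 0.0393 SE, FDR = 2.96e-10 by edgeR). At 7 days, the counts were 1855, 1747, 1764 and 1748 with DMSO and 1587, 1439, 1539 and 1459 with sorafenib. The DMSO level itself was lower at 7 days, and sorafenib brought it to 0.846 (log2 fold change -0.24 ± 0.0394 SE, FDR = 2.63e-05 by edgeR), with no overlap. The fall at 7 days was smaller than that at 48 hours by 0.30 on the log2 scale (interaction FDR = 0.000222 by edgeR).

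The stretch upstream of Cds2 is shown because Cds2 is among the 4 members with the largest change and has a promoter sequence in RefSeq (GRCm38.p6) that is mostly outside annotated exons. In all, 6 motifs were searched on both strands in the 250 bases before and 50 bases after each start site: NRF1 (GCGCANGCG), ETS (CCGGAAG), ERR (TCAAGGTCA), E-box (CACGTG), CARE (TGATGNAA) and the CCAAT box (CCAAT). RefSeq had 10 promoters for 8 of the members and none for Tamm41. Bases 250 to 12 before the first start site of Cds2 lie at chr2:132262898-132263136 on the plus strand, and capitals mark its CCAAT boxes, 1 on either strand.
Cds2: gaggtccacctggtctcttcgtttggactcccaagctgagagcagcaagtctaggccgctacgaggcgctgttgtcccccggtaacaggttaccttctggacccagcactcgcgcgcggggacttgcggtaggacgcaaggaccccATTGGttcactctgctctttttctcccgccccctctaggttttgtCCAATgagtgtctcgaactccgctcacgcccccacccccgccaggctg
A CCAAT box is common, being present in 37.4% of all 32851 promoters of the table. No ERR or CARE motif was found in any of the 10 member promoters, where 0.423% and 3.97% of all promoters hold one.

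Cds1, the paralog of Cds2, was barely expressed. With DMSO for 48 hours, its normalized counts were 15.6, 13.01, 12.2 and 12.1, and with sorafenib 12.6, 6.05, 7.61 and 5.68. Replicate 1 with sorafenib lay among the DMSO libraries, and the difference did not pass (log2 fold change -0.74 ± 0.345 SE, FDR = 0.08 by edgeR). Leaving that library out gave a log2 fold change of -1.03 with an FDR of 0.0255 by edgeR. At 7 days, Cds1 stood at 12.97, 17.99, 15.5 and 19.5 with DMSO and at 2.25, 10.6, 4.37 and 7.87 with sorafenib. It fell to 0.396 of the DMSO level with no overlap between groups (log2 fold change -1.34 ± 0.324 SE, FDR = 0.00146 by edgeR). A count of 3 reads corresponds to 2.44 to 4.54 normalized counts in these libraries, so the lowest Cds1 values are close to the limit of what can be read.

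Tamm41 makes CDP-diacylglycerol inside mitochondria, the pool that cardiolipin synthesis draws on, and it fell at 7 days. At 48 hours, the counts were 934.5, 997, 957 and 871 with DMSO and 959.7, 1037, 919 and 953 with sorafenib. The groups overlapped, and the log2 fold change was 0.04 with an interval from -0.06 to 0.14 (FDR = 0.526 by edgeR). At 7 days, the counts were 1161, 1175, 1194 and 1196 with DMSO and 799.8, 878, 802 and 828 with sorafenib. All sorafenib libraries lay below all DMSO libraries, and Tamm41 fell to 0.700 of the DMSO level (log2 fold change -0.51 ± 0.0471 SE, FDR = 9.74e-09 by edgeR). The difference between the responses at the 2 times was -0.55 ± 0.0673 SE on the log2 scale (interaction FDR = 1.63e-06 by edgeR), the largest of the members that passed this test. The DMSO groups enter this difference, and Tamm41 rose by 0.33 on the log2 scale between them.

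Prelid1 carries phosphatidic acid across the intermembrane space together with its partner Triap1, and it was lower with sorafenib at both times. At 48 hours, its counts were 6798, 6727, 6858 and 6871 with DMSO and 4626, 4896, 4425 and 4500 with sorafenib. Every sorafenib library was below every DMSO library, and Prelid1 fell to 0.677 of the DMSO level (log2 fold change -0.56 ± 0.0324 SE, FDR = 7.22e-12 by edgeR). At 7 days, the counts were 6265, 6346, 6407 and 5989 with DMSO and 4904, 4885, 4978 and 4898 with sorafenib. The 4 sorafenib libraries were nearly equal, and the level was 0.786 of that with DMSO (log2 fold change -0.35 ± 0.0322 SE, FDR = 1.15e-08 by edgeR). The fall was smaller at 7 days by 0.22 (interaction FDR = 0.000732 by edgeR).

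Of the genes that overlap Prelid1 on the other strand, Mxd3 was also lower with sorafenib, at 612 ± 56.5 against 259 ± 17.9 at 48 hours and 468 ± 32.6 against 230 ± 19.4 at 7 days. Rab24 stood at 958 ± 24.2 and 915 ± 65.5 at 48 hours and at 842 ± 41.0 and 871 ± 40 at 7 days, which did not pass at either time (FDR = 0.277 and 0.429 by edgeR), and without replicate 2 of sorafenib for 48 hours the log2 fold change at 48 hours was -0.11 (FDR = 0.0347 by edgeR). The part of these partners in the Prelid1 counts was not tested. The start of Prelid1 held an E-box and an ETS motif within 30 bases, shown here because Prelid1 had the largest change at 48 hours among the members that passed. The stretch covers bases 85 to 56 before the start site at chr13:55321970-55321999 on the plus strand (GRCm38.p6, RefSeq), with both motifs in capitals.
Prelid1: ggtCACGTGacgcgggcgCCGGAAGtggcc
Another ETS motif begins 37 bases before the start. An E-box occurs in 7.15% and an ETS motif in 8.86% of all promoters. Of the other members, Crls1 held an E-box and Pgs1 an ETS motif, and Cds1, Ptpmt1 and Pnpla8 held none of the 6 motifs.

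The first dedicated step of the pathway moved the other way. Pgs1 encodes the phosphatidylglycerophosphate synthase, which joins CDP-diacylglycerol with glycerol 3-phosphate. At 48 hours, its counts were 945, 920.5, 927 and 854 with DMSO and 1364, 1252, 1263 and 1398 with sorafenib. The groups did not overlap, and Pgs1 rose 1.45-fold (log2 fold change 0.53 ± 0.0480 SE, FDR = 7.44e-09 by edgeR). At 7 days, the counts were 1236, 1286, 1389 and 1240 with DMSO and 1530, 1515, 1538 and 1492 with sorafenib. Pgs1 rose 1.18-fold (log2 fold change 0.24 ± 0.0460 SE, FDR = 0.000173 by edgeR), less than at 48 hours by 0.30 (interaction FDR = 0.00133 by edgeR). The start of Pgs1 held an NRF1 motif, shown in capitals on bases 67 to 38 before the start site at chr11:117986790-117986819 on the plus strand (GRCm38.p6, RefSeq), since Pgs1 had the largest rise of the members.
Pgs1: gccgctaccgCGCCTGCGCgctggctccct
An NRF1 motif occurs in 6.25% of all promoters. Among the member promoters, Cds2 had the only other one, after its start site.

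Ptpmt1, the phosphatase that turns phosphatidylglycerophosphate into phosphatidylglycerol, followed Pgs1 in direction. At 48 hours, its counts were 513, 520.5, 482 and 505 with DMSO and 674, 711, 622 and 597 with sorafenib. The groups did not overlap, and Ptpmt1 rose 1.28-fold (log2 fold change 0.36 ± 0.0567 SE, FDR = 1.69e-05 by edgeR). After 7 days, counts were 739.6, 805, 715 and 734 with DMSO and 795, 815, 862 and 842 with sorafenib. DMSO replicate 2 lay above sorafenib replicate 1, and the 1.11-fold rise passed narrowly (log2 fold change 0.15 ± 0.0527 SE, FDR = 0.0222 by edgeR, exact permutation p = 0.0571). This call was lost without DMSO replicate 3 or 4 or sorafenib replicate 3 or 4 at 7 days, with FDR values from 0.0514 to 0.0753 by edgeR. Kbtbd4, which overlaps Ptpmt1 on the other strand, went from 751 ± 21.4 to 527 ± 37.0 at 48 hours and from 692 ± 31.6 to 517 ± 16.1 at 7 days, and its part in the Ptpmt1 counts was not tested.

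Crls1, the cardiolipin synthase itself, changed little. At 48 hours, the counts were 1299, 1283, 1331 and 1254 with DMSO and 1329, 1499, 1392 and 1340 with sorafenib. Sorafenib replicate 1 lay below DMSO replicate 3, and the log2 fold change of 0.10 ± 0.0462 SE did not pass (FDR = 0.0624 by edgeR), with an interval from 0.01 to 0.20. It passed without sorafenib replicate 2 at 7 days (FDR = 0.0362 by edgeR). Without replicate 2 of sorafenib for 48 hours, the highest Crls1 library at that time, it was 0.07 (FDR = 0.133 by edgeR). After 7 days, counts were 1369, 1443, 1428 and 1429 with DMSO and 1175, 1342, 1207 and 1203 with sorafenib. All 4 sorafenib libraries were below the DMSO libraries, and Crls1 fell to 0.870 of the DMSO level (log2 fold change -0.20 ± 0.0456 SE, FDR = 0.000791 by edgeR). The difference between the 2 responses was -0.31 ± 0.0648 SE (interaction FDR = 0.000797 by edgeR). Without replicate 2 of sorafenib for 48 hours it was -0.27 (interaction FDR = 4.09e-05 by edgeR).

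Lrrn4, whose exons cover much of Crls1 on the opposite strand, fell far more: from 6071 ± 121 to 1245 ± 105 at 48 hours and from 7576 ± 157 to 138 ± 11.2 at 7 days. Its part in the Crls1 counts was not tested. Among the 10645 genes averaging 100 or more normalized counts, the 3 whose pattern over the 16 libraries was closest to that of Crls1 were Inpp5f, Thoc7 and Sbno1, at root mean square distances of 0.0465, 0.0508 and 0.0533 in centered log2 counts, where the median gene was at 0.271. Their log2 fold changes were 0.11, 0.03 and 0.10 at 48 hours and -0.20, -0.21 and -0.22 at 7 days. The 3 genes were picked by closeness over these same libraries, so fold changes near those of Crls1 follow from the choice.

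Of the remodeling genes, Lclat1 encodes a lysocardiolipin acyltransferase that puts acyl chains back on. At 48 hours, its counts were 1244, 1165, 1170 and 1145 with DMSO and 1486, 1057, 1553 and 1583 with sorafenib. Replicate 2 with sorafenib, the library with lowered counts in this region, lay below all DMSO libraries, while the other 3 lay above them. With all libraries, Lclat1 rose 1.21-fold (log2 fold change 0.27 ± 0.0818 SE, FDR = 0.00802 by edgeR). Without that library, the sorafenib mean was 1541 ± 49.8 (n = 3) and the rise 1.31-fold (log2 fold change 0.39 ± 0.0384 SE, FDR = 1.47e-12 by edgeR). Leaving out DMSO replicate 4 or sorafenib replicate 1, 3 or 4 at 48 hours instead ended the call, with FDR values from 0.0512 to 0.0815 by edgeR.

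At 7 days, Lclat1 stood at 1369, 1367, 1369 and 1322 with DMSO and 1519, 1548, 1602 and 1462 with sorafenib. The groups did not overlap, yet the log2 fold change of 0.18 ± 0.0800 SE did not pass in the fit of all 16 libraries (FDR = 0.0676 by edgeR). Without replicate 2 of sorafenib for 48 hours, which enters that fit through the shared spread, the same log2 fold change of 0.18 had an SE of 0.0342 and an FDR of 1.2e-05 by edgeR. The difference between the times moved likewise, from -0.10 (FDR = 0.567 by edgeR) with all libraries to -0.21 (FDR = 0.000658 by edgeR) without that library.

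Pnpla8 encodes a phospholipase that cleaves acyl chains from mitochondrial phospholipids, cardiolipin among them. At 48 hours, its counts were 983, 1095, 988 and 997 with DMSO and 1156, 1068, 1135 and 1081 with sorafenib. DMSO replicate 2 lay within the sorafenib range, and the 1.09-fold rise passed narrowly (log2 fold change 0.13 ± 0.0482 SE, FDR = 0.031 by edgeR, exact permutation p = 0.0857). It did not pass in DESeq2 (FDR = 0.0547), nor without any 1 of DMSO replicates 1, 3 and 4 and sorafenib replicates 1, 3 and 4 at 48 hours, with FDR values from 0.0909 to 0.223 by edgeR. After 7 days, counts were 849.8, 862, 868 and 817 with DMSO and 1018, 1001, 980.4 and 892 with sorafenib. The groups did not overlap, and Pnpla8 rose 1.15-fold (log2 fold change 0.20 ± 0.0483 SE, FDR = 0.00169 by edgeR).

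**Figure D3:**
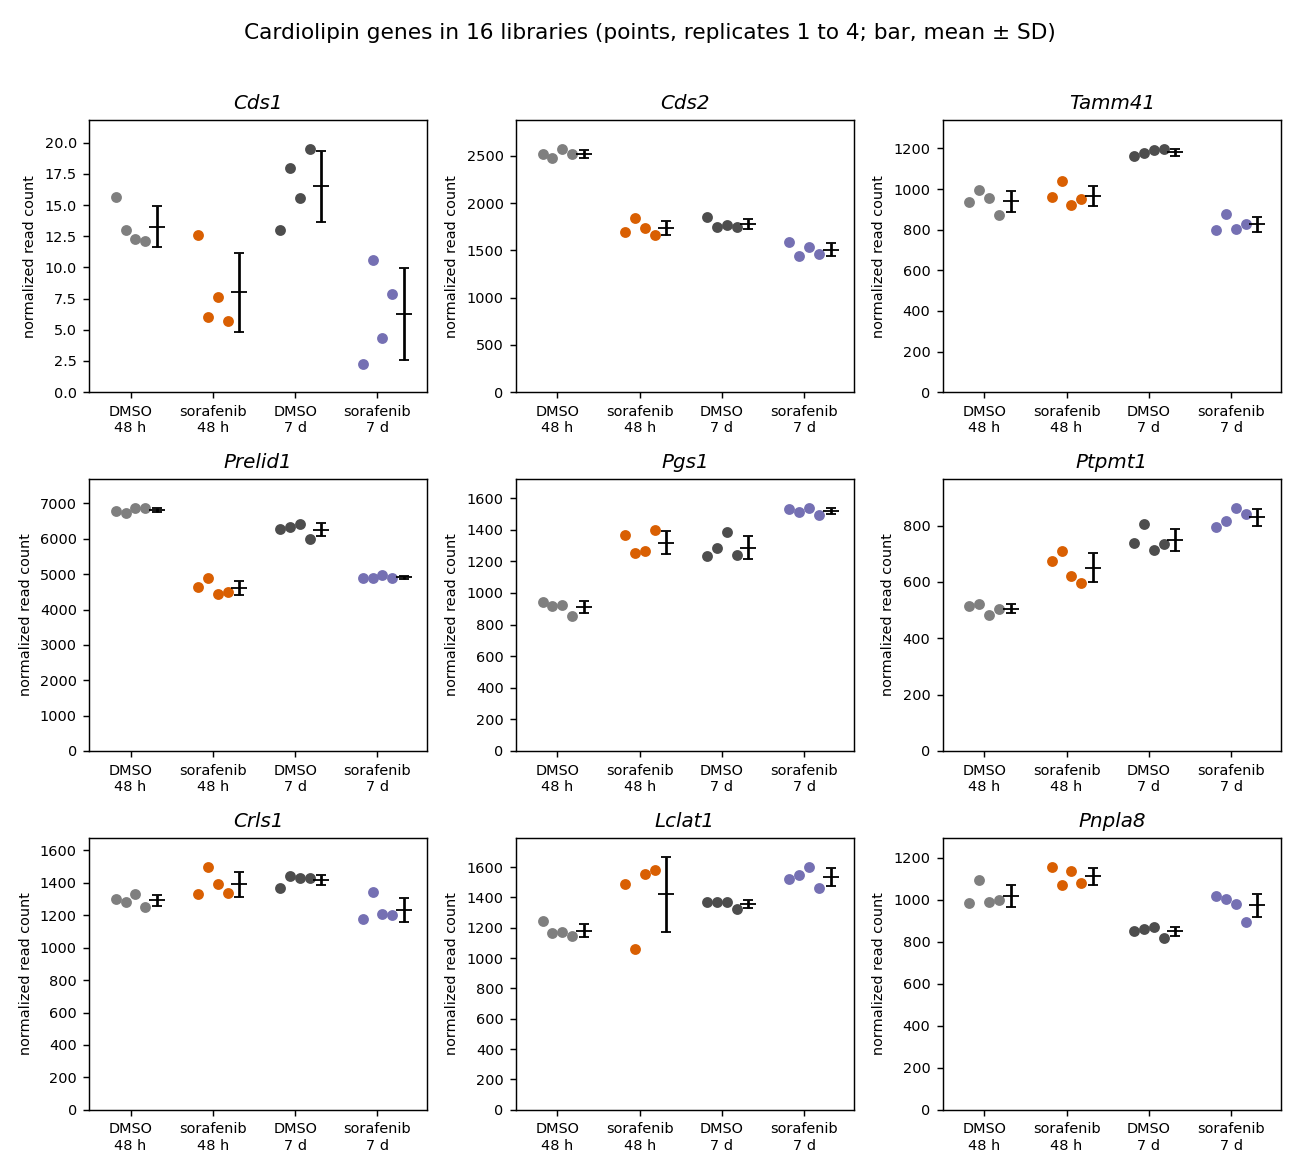
Normalized read count (vertical axis, from 0) of each of the 9 members in the 16 libraries, 1 panel per gene, with points for replicates 1 to 4 of each group and a bar for the mean ± SD. The low point of Lclat1 with sorafenib for 48 hours is replicate 2, at 1057, and the groups of Cds2, Prelid1 and Pgs1 are separate at both times.

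The response of 6 of the 9 members differed between 48 hours and 7 days by the interaction test. The log2 response at 7 days minus that at 48 hours was positive for Cds2 and Prelid1, which fell less at 7 days. It was negative for Tamm41, Pgs1, Ptpmt1 and Crls1. Of all genes, 15.5% passed with a positive difference and 21.3% with a negative one. For Cds2, Prelid1, Pgs1 and Ptpmt1 the change at 7 days had the same direction as at 48 hours and was smaller. Ptpmt1 passed narrowly (-0.21 ± 0.0774 SE, FDR = 0.0374 by edgeR). Its call was lost in 13 of 24 alternative settings, DESeq2 included (FDR = 0.0515) and without any 1 of 9 libraries, with FDR values from 0.0541 to 0.132 by edgeR: DMSO replicates 1, 3 and 4 and sorafenib replicates 1, 2 and 3 at 48 hours, and DMSO replicate 2 and sorafenib replicates 1 and 2 at 7 days. Cds1 (-0.60, FDR = 0.375 by edgeR), Lclat1 and Pnpla8 (0.07, FDR = 0.482 by edgeR) did not pass.

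Levels also differed between the 2 harvests in the vehicle, where time in culture and harvest cannot be told apart. From 48 hours to 7 days of DMSO, Tamm41, Pgs1, Ptpmt1, Crls1 and Lclat1 rose and Cds2, Prelid1 and Pnpla8 fell, 5 higher and 3 lower, against 23.9% and 25.5% of all genes. The largest of these were Ptpmt1 (log2 fold change 0.57 ± 0.0547 SE, FDR = 3.47e-08 by edgeR), Cds2 (-0.50 ± 0.0388 SE, FDR = 1.34e-09 by edgeR) and Pgs1 (0.50 ± 0.0473 SE, FDR = 2.62e-08 by edgeR). For these 3 genes the change between vehicle groups had the direction of the sorafenib response at 48 hours and was 0.57, -0.50 and 0.50 beside 0.36, -0.54 and 0.53 for the drug. These values share the DMSO libraries at 48 hours. Lclat1 passed here only just (FDR = 0.047 by edgeR) and did not in 18 of 24 alternative settings, with FDR values up to 0.13, which was reached without DMSO replicate 4 at 48 hours. Leaving out any library other than replicate 2 of sorafenib for 48 hours ended that call. Crls1 (0.13, FDR = 0.0185 by edgeR) did not pass without DMSO replicate 4 at 48 hours (FDR = 0.0631 by edgeR) or DMSO replicate 2 at 7 days (FDR = 0.0501 by edgeR).

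In sorafenib, Prelid1, Pgs1 and Ptpmt1 rose from 48 hours to 7 days and Cds2, Tamm41, Crls1 and Pnpla8 fell, 3 higher and 4 lower, against 17.5% and 22.3% of all genes. Ptpmt1 had the largest rise (log2 fold change 0.35 ± 0.0546 SE, FDR = 2.61e-05 by edgeR), and Tamm41 the largest fall (-0.22 ± 0.0485 SE, FDR = 0.000999 by edgeR). The rise of Prelid1 (0.09, FDR = 0.028 by edgeR) was lost without replicate 3 of sorafenib for 7 days (FDR = 0.0705 by edgeR). Pgs1 and Ptpmt1 were thus highest with sorafenib for 7 days and lowest with DMSO for 48 hours, at 1519 ± 19.9 and 912 ± 40 for Pgs1 and at 829 ± 29.5 and 505 ± 16.8 for Ptpmt1. Cds2 had the reverse order, at 1506 ± 69.3 and 2519 ± 38.4.

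Of 22 further genes of mitochondrial phospholipid handling, 4 rose and 13 fell at 48 hours, and 6 rose and 12 fell at 7 days, where 26.9% of all genes were higher and 27.7% lower at 48 hours and 28.9% and 27.9% at 7 days. Their median log2 fold change was -0.25 at 48 hours and -0.24 at 7 days, beside -0.05 and 0.02 over all genes tested. Among those that supply phosphatidic acid, Agpat5, an acyltransferase of mitochondria, had counts of 2376, 2413, 2378 and 2309 with DMSO and 1513, 1778, 1472 and 1559 with sorafenib at 48 hours. At 7 days, it had 2251, 2325, 2299 and 2134 with DMSO and 1082, 1112, 1134 and 1071 with sorafenib. It fell to 0.666 of the DMSO level at 48 hours and to 0.488 at 7 days (FDR = 1.7e-09 and 2.47e-13 by edgeR). Gpam, the mitochondrial glycerol 3-phosphate acyltransferase, fell to 0.824 and 0.775 (FDR = 0.00861 and 0.000938 by edgeR), and to a log2 fold change of -0.15 in place of -0.28 at 48 hours without replicate 2 of sorafenib (it lies on chromosome 19). Gpat2 had at most 5 reads in any library, so no fold change is given.

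The genes around phosphatidic acid transfer did not move as a unit with Prelid1. Triap1, its partner, was at 309, 338, 327 and 324 with DMSO and at 424, 417, 444 and 428 with sorafenib at 48 hours, and at 369.8, 384, 343 and 392 with DMSO and 462, 509, 502 and 506 with sorafenib at 7 days. It rose 1.32-fold and 1.33-fold (FDR = 3.35e-06 and 1.11e-06 by edgeR), opposite to Prelid1 at both times. Prelid2, a paralog of Prelid1, fell to 0.362 at 48 hours, from 321 ± 16 to 113 ± 27.8 (FDR = 1.49e-09 by edgeR). At 7 days its groups overlapped at 88.7 ± 9.56 and 80.4 ± 8.79 (FDR = 0.457 by edgeR), the DMSO level being far below that at 48 hours. Prelid3a, a phosphatidylserine carrier, fell from 363 ± 11.3 to 132 ± 21.4 at 48 hours and from 331 ± 17.9 to 138 ± 11.8 at 7 days (FDR = 1.94e-11 and 8.06e-11 by edgeR). Its paralog Prelid3b rose 1.53-fold at 48 hours (FDR = 2.5e-11 by edgeR) and had a log2 fold change of -0.002 at 7 days (FDR = 0.981 by edgeR). Prelid2 and Prelid3a lie on chromosome 18. Without replicate 2 of sorafenib, their log2 fold changes at 48 hours were -1.34 and -1.36 in place of -1.47 and -1.45.

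Cdipt, the phosphatidylinositol synthase, uses CDP-diacylglycerol for another lipid, and it had the largest rise of these genes. Its counts were 1072, 1077, 1060 and 1080 with DMSO and 2100, 2265, 2123 and 2064 with sorafenib at 48 hours. At 7 days they were 1648, 1754, 1670 and 1670 with DMSO and 2634, 2667, 2480 and 2681 with sorafenib. The groups lay far apart at both times, with rises of 1.99-fold and 1.55-fold (FDR = 1.11e-14 and 7.52e-12 by edgeR). On the other strand, Cdiptos covers 19.3% of the exons of Cdipt, Gm35934 18.2% of those of Agpat5 and Tnk1 17.6% of those of Plscr3. The part of these partners in the counts was not tested. Pisd, which makes phosphatidylethanolamine in mitochondria, had a log2 fold change of 0.07 at 48 hours (FDR = 0.201 by edgeR) and fell to 0.691 at 7 days (FDR = 4.2e-09 by edgeR).

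Tafazzin, listed as Taz, is the transacylase that completes cardiolipin remodeling and lies on chromosome X. At 48 hours, its counts were 736, 692, 712 and 739 with DMSO and 612, 459.7, 666 and 699.6 with sorafenib. The lowest of these was replicate 2, and the groups overlapped at sorafenib replicate 4. The fall to 0.854 passed with all libraries (log2 fold change -0.23 ± 0.0866 SE, FDR = 0.0318 by edgeR) and did not without replicate 2 (-0.12 ± 0.0571 SE, FDR = 0.0655 by edgeR). At 7 days, Taz stood at 437, 426, 491 and 426 with DMSO and at 543, 538, 562 and 606 with sorafenib, and it rose 1.26-fold (log2 fold change 0.34 ± 0.0887 SE, FDR = 0.00298 by edgeR) with no overlap. The 2 responses differed by 0.56 with all libraries (interaction FDR = 0.00112 by edgeR) and by 0.46 without replicate 2 (interaction FDR = 3.91e-06 by edgeR).

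Hadha, a subunit of the mitochondrial trifunctional protein that also has a monolysocardiolipin acyltransferase activity, was lower with sorafenib at both times. Its counts were 3603, 3652, 3635 and 3607 with DMSO and 2635, 2950, 2863 and 2894 with sorafenib at 48 hours. At 7 days they were 3141, 3192, 3177 and 3079 with DMSO and 2714, 2570, 2728 and 2686 with sorafenib. It fell to 0.782 and 0.850 of the DMSO level (FDR = 2.58e-08 and 6.49e-06 by edgeR) without overlap. Garem2 and Hadhb overlap Hadha on the other strand, over 21.3% and 9.8% of its exons. Garem2 went from 389 ± 25.8 to 77.8 ± 19.8 at 48 hours and from 111 ± 2.79 to 48.5 ± 6.93 at 7 days, and Hadhb, the other subunit, fell to 0.803 and 0.768, and their part in the Hadha counts was not tested. Abhd18, a hydrolase linked to cardiolipin deacylation, fell to 0.527 at 48 hours and rose 1.26-fold at 7 days (FDR = 1.15e-07 and 0.019 by edgeR). Its DMSO level went from 170 ± 19.6 to 60.8 ± 7.24 between these times, and the rise was lost without DMSO replicate 2 at 7 days (FDR = 0.0854 by edgeR). Pla2g6, a phospholipase on chromosome 15, fell to 0.605 and 0.756 (FDR = 1.32e-06 and 0.000924 by edgeR), and by 0.60 on the log2 scale at 48 hours without replicate 2 of sorafenib.

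Serac1, which remodels phosphatidylglycerol, had a log2 fold change of 0.06 at 48 hours (FDR = 0.706 by edgeR) and rose 1.36-fold at 7 days (FDR = 0.003 by edgeR). Serac1 is a gene of chromosome 17, and leaving out replicate 2 gave it a change of 0.20 on the log2 scale at 48 hours (FDR = 0.0172 by edgeR). Dnajc19, a regulator of remodeling at the prohibitin ring, rose 1.31-fold and 1.27-fold (FDR = 0.000132 and 0.000351 by edgeR). The prohibitins that form this ring, Phb and Phb2, fell at 7 days to 0.676 and 0.788, Phb also at 48 hours to 0.882 (FDR = 4.63e-11, 2.14e-08 and 0.0003 by edgeR). Their partner Stoml2, a cardiolipin-binding scaffold, fell to 0.908 and 0.839 (FDR = 0.000391 and 2.62e-07 by edgeR).

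Pld6, Nme4 and Plscr3, which cut or move cardiolipin, each fell at 48 hours, at 7 days or at both. Pld6, a phospholipase of the outer membrane, was rare, with means of 19.9 ± 3.72 and 4.75 ± 3.38 at 48 hours and 8.79 ± 3.69 and 2.47 ± 1.30 at 7 days (FDR = 0.000113 and 0.00459 by edgeR). Nme4, a nucleoside diphosphate kinase that carries cardiolipin outward, fell to 0.597 at 48 hours (FDR = 2.96e-06 by edgeR). It lies on chromosome 17, and its log2 fold change there was -0.62 without replicate 2 of sorafenib in place of -0.74. At 7 days it was at 678 ± 58.8 and 638 ± 42.9 (FDR = 0.495 by edgeR). Plscr3, a scramblase, had a log2 fold change of -0.01 at 48 hours (FDR = 0.925 by edgeR) and fell to 0.825 at 7 days (FDR = 1.09e-05 by edgeR).

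**Figure D4:**
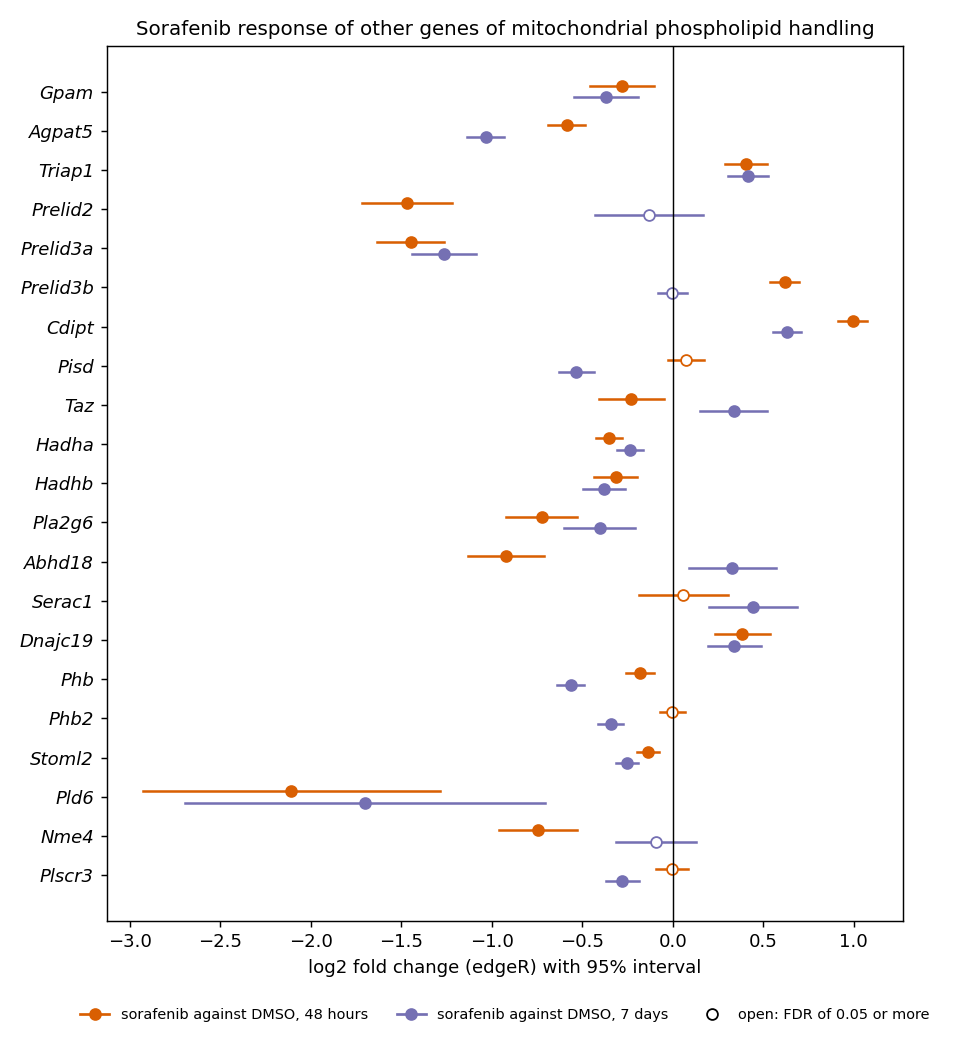
Log2 fold change with sorafenib against DMSO (horizontal axis) of 21 further genes of mitochondrial phospholipid handling, at 48 hours (orange) and 7 days (purple), with the 95% interval of the edgeR fit and open symbols for an FDR of 0.05 or more. Cdipt has the largest rise, at 0.99 at 48 hours, Pld6 the largest fall with the widest interval, and Taz and Abhd18 pass the test left of 0 at 48 hours and right of 0 at 7 days. Taz is tafazzin, and Gpat2 is left out for its low counts.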

How the data were processed

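Libraries were made by the authors with the Illumina Stranded mRNA Prep kit. According to the study's methods and the submitters' processing notes, reads were aligned to GRCm39 with STAR 2.7.1a and counted with featureCounts 2.0.6, and DESeq2 1.40.2 was used downstream. The gene annotation and strand setting are not given in the sources used here. The deposited values are raw counts of reads per gene, not normalized.

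Genes with fewer than 10 counts over all libraries were removed (20396 of 40840), as in the study. The rest were fitted in 1 model of 4 groups with edgeR 4.0.16 (R 4.3.3; TMM factors, quasi-likelihood test, Benjamini-Hochberg FDR under 0.05), with no block. Normalized counts divide by library size times TMM factor. Single genes had an exact two-sided permutation test. Positions and exon lengths came from GENCODE M39, promoters from RefSeq. Tafazzin and Phb1 were read under the older symbols Taz and Phb. The steps were tested on simulated data.

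The members, gene lists and motifs were chosen with earlier results of these data known. All members and all 22 other pathway genes are named, with Trp53, Myc, overlapping genes and the 3 genes nearest to Crls1. Same-numbered replicates share only a number. Pairs of replicates differed beyond counting error (chi-square per gene of at least 1.58). This value was 53.14 to 71.65 between DMSO replicate 4 and the other replicates at 7 days, and 1.94 to 3.21 among those others. With DMSO for 48 hours it was 18.68 to 42.72 between replicates 1 or 4 and 2 or 3. For replicate 2 of sorafenib for 48 hours it was 32.64 to 38.09. The cause was not tested. Depth was 16586254 to 30828427 counts per library, and 3 counts were taken as the floor. Alternatives were DESeq2 1.42.0, other scalings and filters, a fold threshold, fewer samples, a replicate block and each library left out.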

Additional observations from a re-analysis of the deposited data

Results flagged for a closer look

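Over 148 sets of 4 replicates of 1 named gene in 1 group, 11 held a library whose gap to its nearest neighbor took more of the group's range than Dixon's 95% critical value allows, where chance gives about 1 in 20. Among the members, these were Lclat1 in DMSO for 7 days (replicate 4, lowest at 1322 with the next at 1367, 0.957 of the range), Pnpla8 in DMSO for 48 hours (replicate 2, highest at 1095 with the next at 997, 0.876) and Cds2 in DMSO for 7 days (replicate 1, highest at 1855 with the next at 1764, 0.843). Replicate 2 of sorafenib for 48 hours was lowest for Gpam (0.927) and Myc (0.835), both on chromosomes where that library had lowered counts. The others were Trp53 (0.909, replicate 1 highest) and Triap1 (0.846, replicate 1 lowest) with sorafenib for 7 days and Taz (0.831, replicate 3 highest) with DMSO for 7 days. Gpat2 stood apart in 3 groups (1.000, 1.000 and 0.857), where it had at most 3 reads in any library.

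The sorafenib response at 7 days minus that at 48 hours passed the interaction test (edgeR, FDR under 0.05) for 6 members. On the log2 scale it was 0.30 for Cds2, 0.22 for Prelid1, -0.55 for Tamm41, -0.31 for Crls1, -0.30 for Pgs1 and -0.21 for Ptpmt1. Of the further pathway genes it was 1.34 for Prelid2, 1.25 for Abhd18, 0.65 for Nme4 and 0.56 for Taz, and -0.62 for Prelid3b, -0.61 for Pisd, -0.45 for Agpat5, -0.38 for Phb, -0.36 for Cdipt, -0.34 for Phb2, -0.27 for Plscr3 and -0.11 for Stoml2. The last did not pass when any 1 of 12 libraries was left out (all but DMSO replicate 1 and sorafenib replicate 2 at 48 hours and DMSO replicate 2 and sorafenib replicate 3 at 7 days), with FDR values from 0.0523 to 0.184 by edgeR, nor with the replicate block (FDR = 0.0743 by edgeR). Outside the pathway it was -3.49 for Lrrn4 and 1.27 for Trp53. Without replicate 2 of sorafenib for 48 hours, the difference was 1.21 for Prelid2 and 0.53 for Nme4.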

How the results depend on the processing

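Calls lost or gained when a library was left out mostly stand beside the results, and those under other settings follow, most with their FDR. Calls gained for the difference by genes other than members are counted below over both kinds of setting. A threshold of 1 on the size of the log2 fold change left 0 members at 48 hours, 1 at 7 days (Cds1) and 0 for the difference between times and for time in DMSO or in sorafenib, and 3 further pathway genes at either time. In that setting the threshold itself, not a different fit, removes the calls. Of all 20444 genes it left 3690 at 48 hours, 4202 at 7 days and 1965 for the difference. It left 2242 for time in DMSO and 1727 for time in sorafenib. Leaving out 1 library at a time gave 4 to 7 members called at 48 hours and 7 to 9 at 7 days, 5 to 6 for the difference between times, 6 to 8 for time in DMSO and 6 to 7 for time in sorafenib, with 17 to 17 and 17 to 18 further pathway genes. Of the 20203 to 20364 genes tested, it called 10609 to 11608 at 48 hours and 10981 to 12590 at 7 days. The counts were 7073 to 8761 for the difference, 9419 to 11242 for time in DMSO and 7355 to 9047 for time in sorafenib. Calls lost with only the 8 samples compared were those of Lclat1 (0.107), Pnpla8 (0.133), Gpam (0.0695) and Taz (0.0898) at 48 hours and of Crls1 (0.0567) and Pnpla8 (0.0529) for time in sorafenib, and Lclat1 at 7 days was gained (7.92e-06). Total counts ended those of Crls1 (0.225) and Lclat1 (0.13) for time in DMSO, Pnpla8 at 48 hours (0.348) and the difference between times of Ptpmt1 (0.305), and Lclat1 at 7 days was gained with total counts (0.027) and with at least 10 counts in every sample (0.0365). With at least 1 count in any sample, Crls1 at 48 hours was gained (0.0113) and Taz lost (0.105). Pnpla8 at 48 hours was also lost in 3 other settings (0.0575 to 0.12) and Ptpmt1 for the difference in 2 (0.0571 and 0.115), Lclat1 for time in DMSO in 2 (0.0565 and 0.1), and Stoml2 for the difference in 4 (0.0706 to 0.803). Over 24 settings, left-out libraries included, Hadha gained a call for the difference in 13 and Pla2g6 in 5. Serac1 gained one in 4 and Rab24 and Mxd3 in 3 each. Gpam gained one only without replicate 2 of sorafenib for 48 hours (-0.21, FDR = 7.02e-05 by edgeR). Rab24 also gained a call at 48 hours with total counts (0.0402). DESeq2 called 5, 8 and 5 members at 48 hours, at 7 days and for the difference between times. It called 11024, 11366 and 7634 of all 20444 genes in these comparisons.

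Values near 0 changed sign, and the cause was not tested. Tamm41 at 48 hours was -0.0311 with scaling by total counts only and -0.0007 with at least 10 counts in every sample, and ranged from -0.0264 to 0.0696 with 1 library left out. The difference between times was 0.0001 for Lclat1, 0.0071 for Gpam, 0.0305 for Hadhb and 0.0502 for Dnajc19 with total counts, a scaling that moved the median of all genes from -0.05 to -0.12 at 48 hours and from 0.02 to 0.12 for the difference. With at least 10 counts in every sample it was 0.0022 for Hadhb and 0.0222 for Dnajc19, and with at least 1 count in any sample -0.0065 for Triap1. Serac1 at 48 hours was -0.0156 with total counts. Prelid3b at 7 days was 0.0211 with total counts, 0.0211 with at least 1 count and 0.0240 with at least 10. With at least 1 count, Phb2 was 0.0354 and Plscr3 0.0332 at 48 hours. With 1 library left out, time in sorafenib ranged from -0.6700 to 0.0147 for Cds1 and from -0.0086 to 0.1822 for Lclat1, Plscr3 from -0.0532 to 0.0036 and Serac1 from -0.0867 to 0.2026 at 48 hours, and Prelid3b from -0.0182 to 0.0213 at 7 days. The difference between times ranged from -0.0692 to 0.0099 for Dnajc19, -0.1101 to 0.0046 for Hadhb, -0.0827 to 0.1436 for Myc and -0.0286 to 0.0586 for Triap1.

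With the replicate block, 6 members were called at 48 hours, 8 at 7 days and 6 for the difference between times, and no member call changed. Of all 20444 genes, 10644, 11027 and 6987 were called. Of the further pathway genes, Stoml2 lost its call for the difference (FDR = 0.0743 by edgeR). The same-numbered samples did not deviate together (r from -0.048 to 0.123), and 2 of 8 pairs correlated best with their own number. The block was not run for the time comparisons. Counts of at most 21 reads limit Cds1.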
